A study of Drosophila melanogaster with 21 samples.

Results

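Antimicrobial peptides are small secreted proteins with which Drosophila melanogaster kills or holds back bacteria and fungi. The 9 genes described here were Drs, Def, DptB, BomS2, Mtk, AttD, CecB, Drsl5 and Drsl6, each measured by 1 probe set of the 13966 tested. They were found by their annotated gene symbol, current or older. Their transcription is known to be driven mainly by 2 signalling routes, Toll and Imd, which end in NF-kB type factors and respond to microbial cell wall fragments. In flies the fat body is the best known source of these peptides after infection, while epithelia that meet the outside, the reproductive tract among them, can express some of them without infection.

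RNA came from the dissected lower reproductive tract of 3-day-old females, comprising the accessory glands, the sperm-storage organs and the upper part of the uterus. Each of the 21 single-colour arrays held labelled RNA from a pool of 12 to 40 females kept at 23 C. The groups were unmated females (n = 5), dissected at times spread among those of the mated ones, and mated females in 4 groups. These were taken at 0 h, directly after mating (n = 6), or once mating had ended 3 h (n = 4), 6 h (n = 3) or 24 h (n = 3) earlier. The study compared each time after mating with unmated females. The strain and the males used are not given in the sources used here, and p-values measure the spread between these pools.

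Array medians lay between 35.6 and 57.7 signal units, so that a signal below about this level lay in the dimmer part of an array. By gaps in the numbers that the labels give to arrays, the arrays sort into 6 sets, called number blocks here, although no label says what such a set stands for. Unmated arrays never shared a number block with arrays of 0 h or 6 h. For those 2 comparisons the number block and the group cannot be told apart within a block. Of the markers fixed for this tissue, Send1, a protease gene of the sperm-storage organs, was bright on all arrays with a median of 8794.3, and Gld, which encodes glucose dehydrogenase, was above the array median on 3 of 21 arrays. The third marker, the protease gene Send2, was above it on 20 of 21. Send2 rose at 3 h and 6 h against unmated females (log2 changes 7.21 and 6.88, adjusted p = 6.19e-06 and 0.000112) and fell from 6 h to 24 h (-6.24, adjusted p = 0.003). In pooled tissue, fewer cells of a type and less RNA per cell cannot be told apart.

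Drs, which encodes the antifungal peptide drosomycin, was among the brightest probe sets of every array, between percentile 99.6 and 100 of an array's signals. In unmated females its signals were 13530, 46685, 12132, 14561 and 15085. At 0 h they ran from 13112 through a median of 19761 to 21945. At 3 h they were 6473.5, 9148.1, 19779 and 13710. The second unmated pool stood far above all others, and the groups overlapped. That pool also stood apart for genes of no immune role: its Yp3 signal, of a yolk protein, was 43076 against 18809 to 21734 in the other unmated pools. Its summed fat body marker signal was 125700 against 70141 to 88083, and its summed female tract marker signal 24104 against 8415.6 to 9979.6. Such sums rest on the brightest genes. As a mean of log2 signals, the fat body markers of that pool had 9.88, within the 9.64 to 10.09 of the other unmated pools. Its female tract markers had 8.46, within 7.28 to 8.49. At 6 h the signals were 10039, 15498 and 15174, and at 24 h they were 12617, 11461 and 16701. All of these lay within the span of the other groups. Drs was thus bright before mating and at each time after it. Against unmated females, the log2 change of Drs was 0.01 (SE 0.35) for the 0 h pools and -0.64 (SE 0.39) for the 3 h pools. For the 6 h and 24 h pools it was -0.40 and -0.39 (SE 0.42 for both). None of these passed limma's test, and the 95% interval of the 3 h change ran from -1.45 to 0.162. Without the second unmated pool, the 0 h change was 0.36 (adjusted p = 0.856) and the 3 h change was -0.29 (adjusted p = 0.973).

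Def encodes defensin, a peptide active mostly against Gram-positive bacteria. Its signals in unmated females were 1018.2, 2346.5, 1154.7, 1000.1 and 996.6. At 0 h they ranged from 640.6 through a median of 1000.25 to 1963.5, and at 3 h they were 554.4, 481.7, 1363.1 and 664.3. The second unmated pool was again the highest of its group, and 3 of the 4 pools at 3 h lay below all unmated pools. At 6 h the signals were 455.8, 1217.1 and 2436.5, and at 24 h they were 702.1, 423.2 and 2057.0. Pools of the same time differed by up to 5.35-fold at 6 h, and both times overlapped with the unmated pools. The log2 changes were -0.19, -0.80, -0.15 and -0.53 at the 4 times in order, with SE between 0.47 and 0.57, and none passed the test.

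DptB encodes diptericin B, a peptide of the Imd route active against Gram-negative bacteria. In unmated females it had signals of 1043.6, 329.3, 870.6, 686.4 and 608.1. At 0 h they ran from 727.9 through a median of 1319.5 to 4278.3. At 3 h they were 909.8, 664.1, 1827.7 and 744.9. At 0 h, 4 of the 6 pools lay above every unmated pool, and the second pool was far above the rest. At 6 h the signals were 835.4, 1107.6 and 2581.2, and at 24 h they were 282.9, 461.6 and 1460.1. The groups overlapped at both times. Relative to unmated females, DptB had a log2 change of 1.07 at 0 h (SE 0.49, 2.1-fold, adjusted p = 0.665) and 1.02 at 6 h (SE 0.59, adjusted p = 0.379). The changes at 3 h and 24 h were 0.53 (SE 0.54) and -0.20 (SE 0.59). With the number block as a fixed term, the 0 h value was 0.16 (SE 0.83) and the 6 h value -0.50 (SE 0.85).

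BomS2 encodes a short bomanin, of a family of Toll route peptides needed as a group to survive infection with Gram-positive bacteria and fungi. Its signals were 1106.9, 382.8, 1655.9, 1910.4 and 2412.6 in unmated females. At 0 h they ran from 670.9 through a median of 1908.9 to 5813.6, and at 3 h they were 1204.8, 1039.7, 1423.2 and 3796.3. The second unmated pool, which had the most Drs and Def signal of its group, had the least BomS2 and DptB signal. At 6 h the values were 2508.8, 1253.4 and 1655.2, and at 24 h they were 1592.2, 1867.4 and 3094.3. All groups overlapped, and no log2 change from unmated females, 0.49, 0.35, 0.45 and 0.73 at the 4 times in order, passed the test (SE between 0.56 and 0.67).

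Mtk, which encodes metchnikowin, a proline-rich peptide against fungi and Gram-positive bacteria that both routes can induce, varied most, with a 190-fold range over the 21 arrays. In unmated females its signals were 34.6, 42.0, 21.0, 19.3 and 66.9, and only 1 of these 5 arrays had it above its median. At 0 h they ran from 83.2 through a median of 211.45 to 3510.4. At 3 h they were 164.8, 250.8, 359.2 and 26.1. All 6 pools at 0 h lay above all 5 unmated pools, while at 3 h the fourth pool was as low as the unmated ones. At 6 h the signals were 130.9, 269.2 and 378.0, and at 24 h they were 24.4, 18.5 and 458.1. The 6 h pools were again all above the unmated pools, and at 24 h only the third pool was.

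The log2 change of Mtk from unmated females was 3.11 at 0 h (SE 0.91, 95% interval 1.196 to 5.017, 8.61-fold), the change with rank 78 by p among all probe sets, with limma's adjusted p = 0.514. At 6 h it was 2.84 (SE 1.10, 95% interval 0.539 to 5.147, 7.17-fold, adjusted p = 0.178). The changes at 3 h and 24 h were 2.09 (SE 1.01, adjusted p = 0.663) and 0.84 (SE 1.10, adjusted p = 0.892). Over the 5 groups together, limma's F test gave Mtk an adjusted p of 0.339. So the separation of the 0 h and 6 h pools from the unmated pools did not pass the threshold set over the whole array.

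Other choices moved these values. Without the second 0 h pool, the 0 h change was 2.38 (adjusted p = 0.599). With the number block as a fixed term, the changes of Mtk were 1.01, 0.58, -0.16 and -1.60 in order of time (SE 1.77, 1.57, 1.82 and 1.57). At 0 h and 6 h, which shared no block with unmated arrays, these values rest on links through the other groups. In the block that held unmated, 3 h and 24 h arrays, Mtk was 26.1 on the 1 array of 3 h and 24.4 on the 1 of 24 h. Both lay between the 2 unmated arrays, at 19.3 and 66.9. From the log2 mean of those 2 they differed by -0.46 and -0.56. Between mated times, the 6 h array minus the 0 h mean was -2.89 in the block that held the highest 0 h pool and 0.81 in the other. The 24 h change rested on the third pool, without which it was -0.64. This pool and the third at 6 h formed a number block of their own and had the 2 lowest values of the first principal component of the 21 arrays. Both had the highest Mtk, DptB and Def signals of their groups, and the part of the block in these values was not tested. Leaving out both the second 0 h pool and the third 24 h pool, a choice made after seeing that these 2 had the most Mtk signal, left the 6 h change at 2.84 with an adjusted p of 0.0381.

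**Figure D1:**
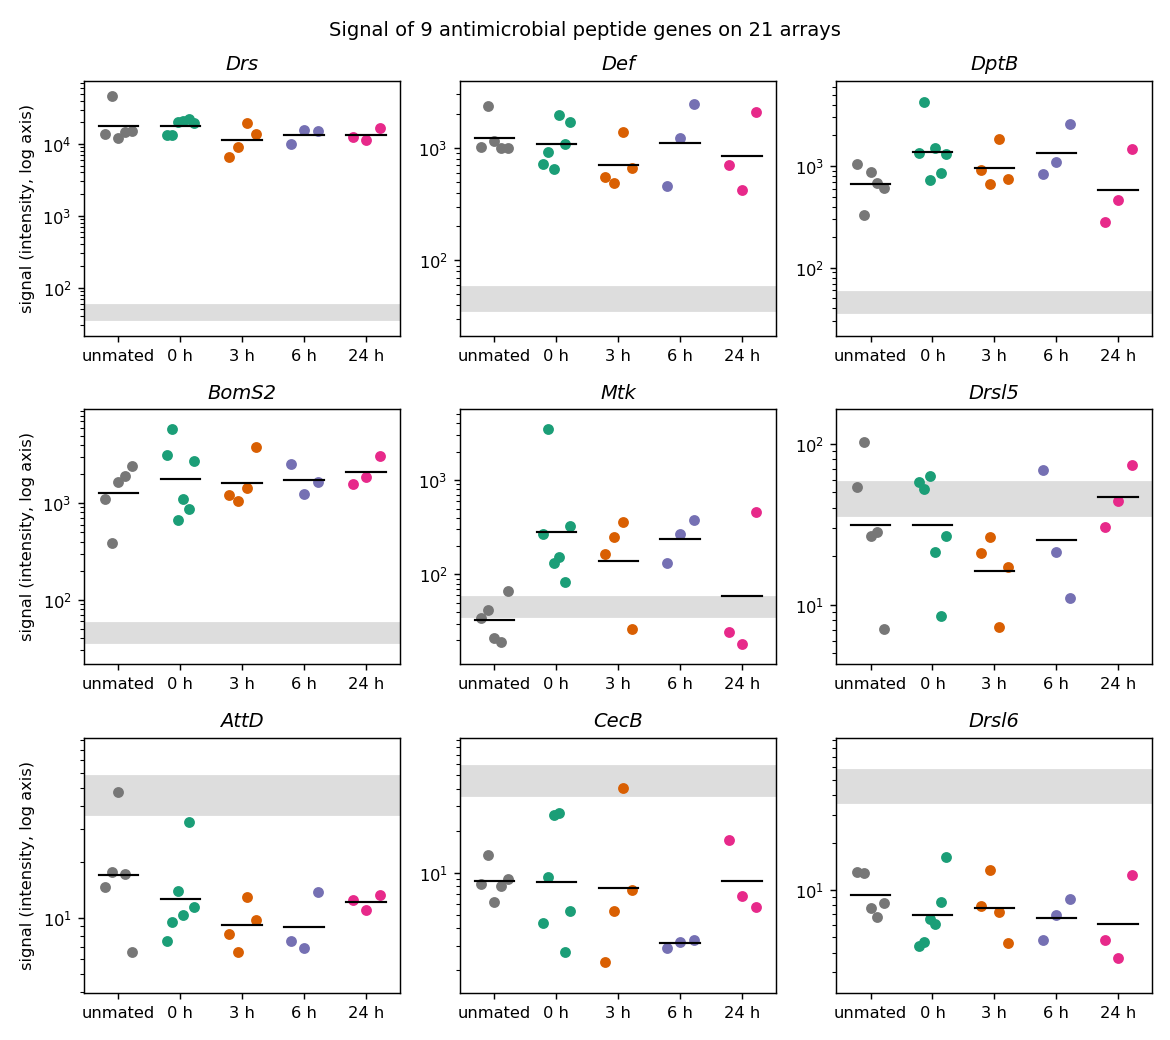
Signal of each of the 9 antimicrobial peptide genes (intensity, log axis) on each of the 21 arrays, by group; a point is 1 pool, a black line the geometric mean of its group, and the grey band the span of the array medians. Drs lies far above the band in every group, all Mtk points at 0 h and 6 h lie above all unmated points, and AttD, CecB and Drsl6 lie within or below the band.

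The other 4 genes were dim, with a mean over all arrays below that of the median probe set. AttD, which encodes an attacin against Gram-negative bacteria, ranged from 6.6 to 47.3, and it was above the array median on 0 of 21 arrays. CecB encodes a cecropin, a helical peptide that opens bacterial membranes, and ranged from 2.3 to 40.7, also above the median on 0 of 21. Its signals at 6 h were 2.9, 3.2 and 3.3, below all unmated signals of 6.2 to 13.4. All of these lie at the dim end of the array, and the log2 change of -1.48 (SE 0.78) had an adjusted p of 0.328. The drosomycin-like gene Drsl6 ranged from 3.7 to 16.3 and its paralog Drsl5 from 7.1 to 102.2, above the median on 0 and on 7 of 21 arrays. The probe set of Drsl6 is of a type that can match several transcripts, and Drsl6 lies 1 gene away from Drs. Its signal was at most 16.3, while that of Drs was at least 6473.5. How far the Drsl6 signal includes that of paralogs was not tested.

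Across the 9 genes, 0 passed limma's threshold at 0 h, where 0% of all probe sets did. Before adjustment, 2 genes, Mtk and DptB, had p under 0.05 at 0 h, both higher. By that rule 7.43% of all probe sets differed and 2.43% were higher. The counts past the threshold were also 0 at 3 h (0.115% of all probe sets), 6 h (1.84%) and 24 h (0%) against unmated females. Before adjustment, 0 genes had p under 0.05 at 3 h and at 24 h, where 7.64% and 7.85% of all probe sets did. At 6 h Mtk alone did, in a comparison where 17.7% of all probe sets differed by that rule and 6.33% were higher. Groups that did not overlap occurred for Mtk, higher at 0 h and 6 h, and for CecB, lower at 6 h. Of all probe sets, 0.394% were higher without overlap at 0 h, and at 6 h 4.71% were higher and 6.28% lower.

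In order of time, the median log2 change of the 9 genes was 0.00, -0.28, -0.30 and -0.20. The medians over all probe sets were -0.10, -0.14, -0.21 and -0.10. From 1 time to another, 0 of the 9 genes passed the threshold for 3 h against 0 h (0.0644% of all probe sets), 6 h against 0 h (0.179%), 6 h against 3 h (0.451%) or 24 h against 6 h (0.0358%). None of these 4 comparisons gave any of the 9 a p under 0.05 before adjustment, as 6.9%, 10.6%, 11.7% and 6.75% of all probe sets had. CecB was higher at 24 h than at 6 h without overlap, as 4.93% of all probe sets were. The largest difference in size was again that of Mtk, -2.003 at 24 h against 6 h (SE 1.23, adjusted p = 0.822). The F test over the 5 groups also called 0 of the 9 genes, against 0.344% of all probe sets. Before adjustment 1 gene, Mtk, had p under 0.05 in it, as 11.8% of all probe sets had.

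**Figure D2:**
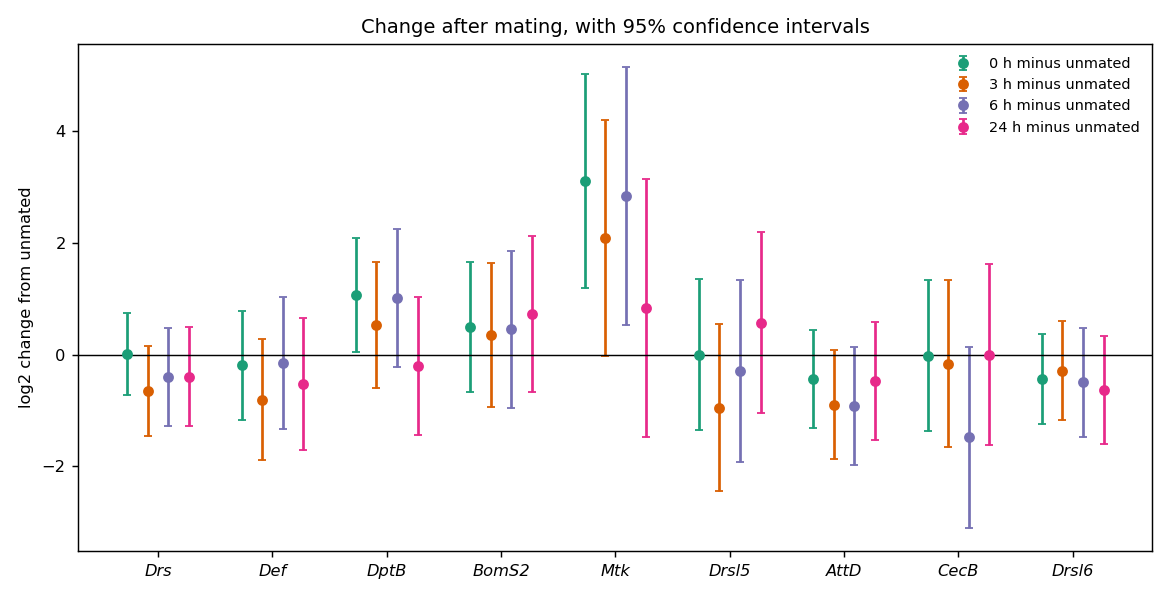
Log2 change of each antimicrobial peptide gene from unmated females at 0 h, 3 h, 6 h and 24 h after mating; points are limma's estimates and bars their 95% confidence intervals, on 21 arrays. The intervals of Mtk at 0 h and 6 h and of DptB at 0 h lie above 0 before adjustment, and all others include 0.

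The spread between pools of the same group differed from gene to gene. As a pooled SD within groups on the log2 scale, it was 0.56 for Drs, 0.80 for Def, 0.84 for DptB, 0.97 for BomS2 and 1.65 for Mtk. The median of the probe sets brighter than the median one was 0.552, and Mtk varied more within groups than 99.7% of these probe sets. Drs thus varied about as much as a typical bright probe set.

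The 5 brighter genes did not all vary together. Over the 10 pairs of these genes, the deviations of the 21 pools from their group means were correlated, and p was taken from 100000 permutations within groups, two-sided and adjusted over the pairs. Drs and Def had Pearson's r = 0.66 (permutation p = 0.00067, adjusted 0.0067) and Spearman's rho = 0.69 (permutation p = 0.00107, adjusted 0.0107). Without the 2 pools farthest from the median of Drs, r was 0.58, and in the 6 arrays of the largest number block it was 0.46. The permutations did not keep to number blocks, so these p-values do not account for them. In the block of 4 arrays with 0 h, 6 h and 24 h pools, both genes were below their group means on all 4. They were also below on both arrays of the block with the first and second 3 h pools. In the block of the third pools at 6 h and 24 h, both genes were above on both arrays. With group and number block both removed, a step added after seeing the data, r was 0.49. The high second unmated pool was high for both genes. Across the 21 arrays, the bright non-member genes whose signal was most like that of Drs were close to each other. They were Yp3 (r = 0.938), CG7443 (0.937), CG18628 (0.929), Mlc2 (0.908) and RpS20 (0.906).

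DptB and Mtk had r = 0.72 (permutation p = 0.0062, adjusted 0.031) and rho = 0.56 (permutation p = 0.0218, adjusted 0.109). Without the 2 pools farthest from the median, the second at 0 h and the third at 24 h, r fell to 0.45, so the relation rests in part on these pools. In the 6 arrays of the largest block r was 0.81, and with group and number block both removed it was 0.60. The pair DptB and BomS2 had r = 0.53 with an adjusted permutation p of 0.0567, and Drs and BomS2 had r = -0.47 with an adjusted permutation p of 0.165. With group and number block both removed, r was 0.71 for DptB and BomS2 and -0.64 for Drs and BomS2. For DptB and Drs it was -0.56, against -0.14 with group alone removed. The values with block removed were not tested. In the 6 arrays of the largest block, these pairs had r = 0.58, 0.09 and 0.76 in the same order. The second pool at 0 h was above its group mean by 3.62 for Mtk, 1.63 for DptB and 1.71 for BomS2 on the log2 scale, and below it for Drs and Def, by -0.42 and -0.22.

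**Figure D3:**
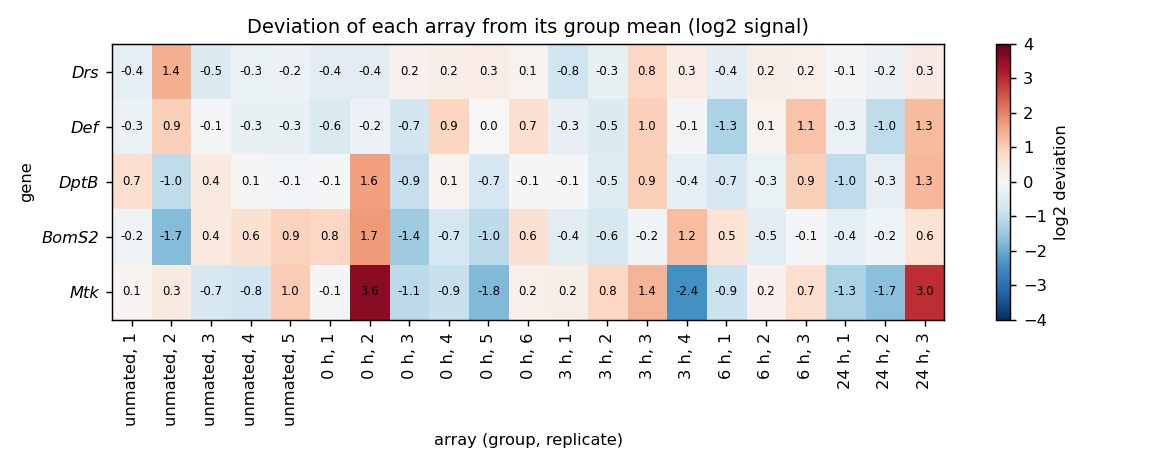
Deviation of each of the 21 pools from its group mean (log2 signal) for the 5 brighter antimicrobial peptide genes; columns are pools named by group and replicate, red is above and blue below the group mean. The second 0 h pool stands out for Mtk, DptB and BomS2, the second unmated pool for Drs and Def, and the third 24 h pool for Mtk, DptB and Def.

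The genes whose pattern over the 21 arrays was most like the mean pattern of these 5 genes, among 5901 bright genes that were not members, were SPE (r = 0.83), BomS5 (0.83), CG4250 (0.79), Obp99b (0.77) and BomBc2 (0.74). SPE encodes the protease that cleaves the Toll ligand spätzle, and BomS5 and BomBc2 encode bomanins. These correlations describe the same arrays and share their labelling and scaling. SPE signals ranged from 324 to 558.5 in unmated females and from 427.9 to 1347 at 0 h. The highest of these was the second 0 h pool, which also had the most Mtk, DptB and BomS2 signal of its group.

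Of 32 further genes for antimicrobial and related immune peptides, 10 had a probe set of a single symbol. Most of these were bomanins. In this list 1 gene rose and 0 fell at 6 h against unmated females, where 1.84% of all probe sets passed in either direction, and 0 passed limma's threshold at the 3 other times. Before adjustment, 4, 3, 5 and 2 of the 10 were higher with p under 0.05 at the 4 times in order, and 0 were lower. Of all probe sets, 2.43%, 1.73%, 6.33% and 2.61% were higher by that rule. Their median log2 changes were 0.78, 0.44, 1.00 and 0.71 in order of time, above the medians of all probe sets given earlier.

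The gene that rose was Listericin, which encodes a peptide that acts against Listeria and Gram-negative bacteria in flies. Its signals were 50.2 to 205.1 in unmated females (median 61.7), 45.3 to 132.4 at 0 h (median 92.05) and 86.7 to 342 at 3 h (median 106.6). At 6 h they were 328.9 to 641.2 (median 419.7) and at 24 h 152.8 to 231.3 (median 226.6). All 6 h pools lay above all pools of unmated females, 0 h and 24 h, and overlapped with the highest at 3 h. Listericin rose 5.92-fold from unmated females to 6 h (log2 2.56, SE 0.51, adjusted p = 0.015). It also rose 5.42-fold from 0 h to 6 h (log2 2.44, SE 0.49, adjusted p = 0.0431).

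Within the 2 number blocks that held 0 h and 6 h arrays, Listericin at 6 h was higher by 3.11 and 2.59. The 6 h call against unmated females was lost when only these groups were fitted (adjusted p = 0.0853) and with the number block as a fixed term (3.41, adjusted p = 0.215). The call against 0 h was lost when only these groups were fitted (adjusted p = 0.115). It was also lost without any 1 of the first 5 pools at 0 h or any 1 of the 3 pools at 6 h, with adjusted p between 0.06 and 0.133.

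Several bomanins and Bbd had all pools of a time after mating above all unmated pools without passing the threshold. Of all probe sets, 0.394% were higher without overlap at 0 h and 4.71% at 6 h, and the share at 3 h is not given here. At 0 h and 6 h no number block was shared with unmated arrays. In the block with 3 h and unmated arrays, the 3 h array differed by 1.98 for BomBc3 and 1.33 for Bbd on the log2 scale. For BomT3 and BomBc2 the difference was 0.88 and -0.31. BomT3 had signals of 342 to 1046.3 in unmated females and of 1390.9 to 2657.5 at 0 h (log2 1.40, SE 0.30, adjusted p = 0.31). BomBc3 had 86.9 to 674.2 in unmated females and 2258.5 to 4842.6 at 3 h (log2 3.22, SE 0.80, adjusted p = 0.212). BomBc2 was nearly constant at 6 h, at 3588.4 to 3632.8, against 853 to 2723.3 in unmated females (log2 1.41, SE 0.39, adjusted p = 0.0667). Bbd, which encodes bombardier, a secreted protein that short bomanins need to be effective, had 7771.8 to 8796.9 at 6 h and 2358.2 to 4007.2 in unmated females (log2 1.37, SE 0.38, adjusted p = 0.0687).

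**Figure D4:**
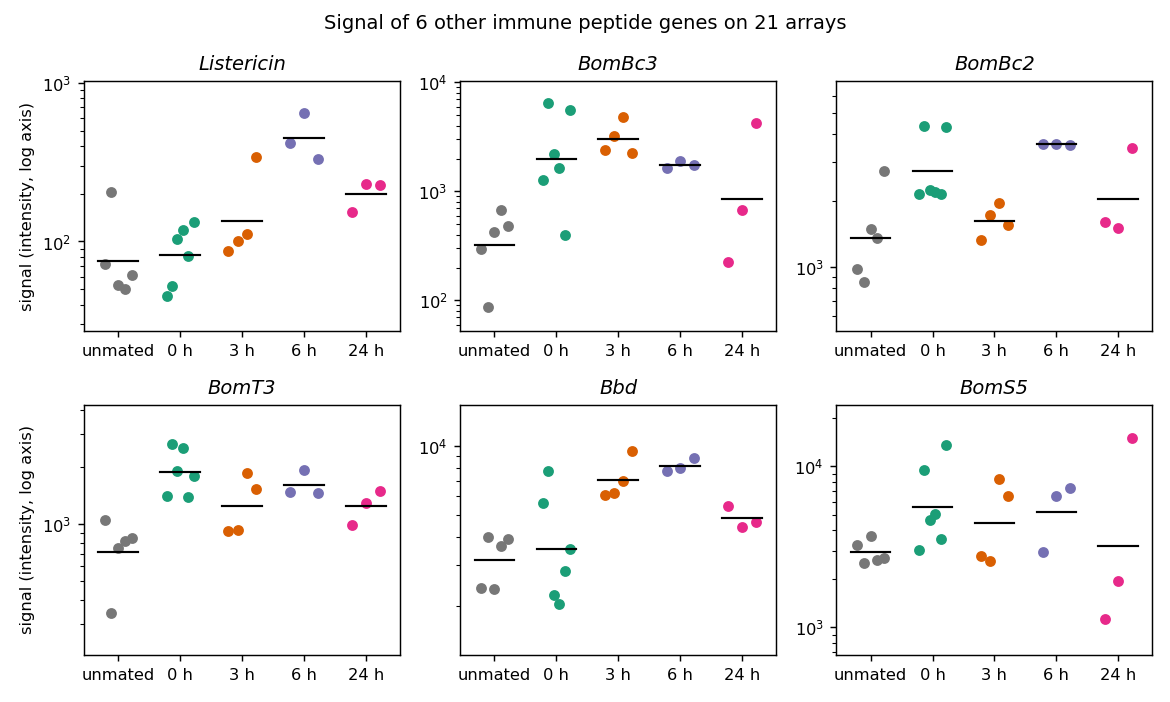
Signal of Listericin, Bbd and 4 bomanin genes (intensity, log axis) on each of the 21 arrays, by group; a point is 1 pool and a black line the geometric mean of its group. All Listericin points at 6 h lie above all unmated, 0 h and 24 h points, and the BomBc3 points at 3 h lie above all unmated points.

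Transcripts of genes in the routes that control these peptides were measured as well, which does not measure how active a route was. The Toll route genes modSP, PGRP-SA, PGRP-SD and GNBP1 had no probe set of a single symbol. Neither had the Imd route genes PGRP-LC, Tak1 and eff. Of the Toll route, 16 of 20 listed genes were measured, and 0 rose or fell by limma's test in any of the 8 comparisons. Before adjustment, 1 was lower at 0 h, and 2 were higher and 3 lower at 6 h than in unmated females with p under 0.05. By that rule 7.43% of all probe sets differed at 0 h and 17.7% at 6 h, where 6.33% were higher. The measured genes included spz, the ligand, Tl, its receptor, cact, the inhibitor that holds NF-kB factors in the cytoplasm, and the factors Dif and dl. Of the Imd route, 20 of 23 were measured and 0 rose or fell. Before adjustment 1, 2, 3 and 1 were lower than in unmated females at the 4 times in order, and 0 were higher. Of all probe sets, 7.43%, 7.64%, 17.7% and 7.85% differed in either direction by that rule. Rel, the NF-kB factor of the Imd route, had a geometric mean signal of 424 in unmated females, and after mating of 424, 334, 220 and 473 in order of time. Among the 4 measured amidases that degrade the peptidoglycan sensed by the Imd route, only PGRP-SC2 passed. Before adjustment, 2 of the 4, PGRP-SC2 and PGRP-SB1, were higher than in unmated females with p under 0.05 at 0 h, 3 h and 6 h. Of all probe sets, 2.43%, 1.73% and 6.33% were. The log2 changes of PGRP-SB1 were 1.18, 1.48 and 0.98 (limma's adjusted p = 0.536, 0.302 and 0.248). PGRP-SC2 rose from 78.7 to 284.8 signal units in unmated females to 828.8 to 1938.8 at 3 h and 1364.5 to 2442.3 at 6 h, and had fallen to 132.6 to 301.4 at 24 h. The 24 h against 6 h change was -3.47 (SE 0.48, adjusted p = 0.00339). All 7 listed lysozyme genes were measured, and 0 passed in any comparison. Before adjustment 1 was lower at 6 h against 0 h, where 10.6% of all probe sets differed.

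Markers of other cells that could share the dissection were read beside these results. Of 9 measured fat body markers 0 passed limma's threshold at any time, and before adjustment at most 1 was higher and 1 lower with p under 0.05. Their summed signal was 70141 to 125700 in unmated females and overlapped with that of each mated group, for instance 59706 to 115910 at 0 h and 58782 to 91846 at 6 h. The yolk protein genes Yp1, Yp2 and Yp3 were bright on all arrays, while Fbp2 was above the array median on 0 of 21. Of 13 hemocyte markers 0 passed. Before adjustment 6 of these markers were lower at 6 h than in unmated females, where 17.7% of all probe sets differed in either direction. Their summed signal at 6 h, 2861.1 to 4582.6, lay below that of unmated females, 5392.2 to 7438, and was lowest in the third pool at 6 h.

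Of 11 oocyte and follicle markers, 3 (swa, pgc and tor, whose transcripts are stored in the egg) rose at 6 h against unmated females. The summed signal of the 11 was 920.9 to 2337.1 there and 521.9 to 729.9 in unmated females. At 0 h the sum was 481.1 to 814.5 in 5 pools and 28867 in the sixth. In the sixth pool Mtk was the second highest of its group at 329.3, and Listericin at 132.4 and BomS5 at 13565.7 were the highest. In the second pool, which had the highest Mtk at 3510.4, the sum was 505.3. The part of oocytes or follicle cells in the 0 h and 6 h values of Mtk and Listericin was not tested.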

How the data were processed

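RNA of pooled tracts was measured on 21 single-colour Affymetrix arrays. The deposited values are linear intensity per probe set, and all arrays share a 2% trimmed mean of 150. RMA is named, without a version, in the submitters' processing notes, but the deposited values are not on RMA's log scale, so how probes were summarised is not settled. Intensity carries no read depth, so precision is set by how many arrays a group has.

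From there, log2 of intensity was taken with no pseudocount. Of 14010 probe sets, 44 controls were left out and 13966 tested. The platform annotation gave 12443 of these 1 symbol, 327 several and 1196 none, and 12394 symbols were updated through RefSeq identifiers, used for names only. Where a gene had several probe sets, the one with the highest mean was used. No coordinates or sequences are printed.

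The tests used limma 3.58.1 (R 4.3.3) with 1 mean per group over all 21 arrays, moderated variances, two-sided tests and Benjamini-Hochberg adjustment over all probe sets within a comparison at 0.05. Adjusted p-values of single genes come from this fit unless another setting is named beside them. Samples were grouped by the labels. All 9 genes are described by rule, together with passing genes of each list and their close paralogs or regulators, and the 5 genes of most similar pattern. The genes and lists were chosen with earlier results of these data known. Arrays of a group shared at most 0.507% of values and each counted as 1 replicate. The fits were tested on simulated data, where most 2-fold changes from unmated females did not pass. A count of 0 past the threshold therefore does not show that there was no change. Alternatives were quantile normalization, median centring, log2 of intensity plus 16, fitting only the groups compared, leaving out dimmer probe sets, the number block as a fixed or random term, trended robust moderation, array weights, a minimum of 1.5-fold, the 3' to 5' control ratio as a covariate and leaving out each array. Added after seeing the data was a fit without replicate 2 at 0 h and replicate 3 at 24 h.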

Additional observations from a re-analysis of the deposited data

Results flagged for a closer look

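In groups of 4 to 6 pools, 33 pairs of a gene and a group were searched for a pool far from the others, and 4 were found. Chance alone marks about 1 in 20 such groups. Drs had a signal of 46685.0 in the second unmated pool, against 12132.4 to 15084.6 in the other unmated pools. Def had 2346.5 in the same pool, against 996.6 to 1154.7. Listericin had 205.1 there, against 50.2 to 71.7. That pool was high for these 3 genes and also for Yp3, a yolk protein gene, at 43076.1 against 18808.9 to 21733.6, while its BomS2 and DptB signals were the lowest of the group. Mtk had 3510.4 in the second 0 h pool, against 83.2 to 329.3 in the other pools of that time.

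Differences between times after mating were searched only among the 9 genes, Listericin and PGRP-SC2, by limma's test of 1 time against another. Only Listericin and PGRP-SC2 passed, and both had been taken in because they passed the threshold in these data. Of all probe sets, 0.0644% passed for 3 h against 0 h, 0.179% for 6 h against 0 h and 0.0358% for 24 h against 6 h. Listericin was higher at 6 h than at 0 h by 2.44 on the log2 scale (adjusted p = 0.0431), with all 3 pools at 6 h above all 6 at 0 h. PGRP-SC2, the amidase gene, was higher than at 0 h by 2.28 at 3 h (adjusted p = 0.0147) and by 3.11 at 6 h (adjusted p = 0.00236). From 6 h to 24 h PGRP-SC2 changed by -3.47 (adjusted p = 0.00339), and its pools did not overlap. The cause of these differences was not tested.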

How the results depend on the processing

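Under all alternatives but 1, the number of the 9 genes past the threshold was 0 in all 186 recomputed counts, and 0 of 1372 recomputed changes of single genes passed. With each array left out in turn, this number also ranged from 0 to 0. The 1 exception came from an added fit without the second 0 h and the third 24 h array. These 2 arrays were picked after seeing that their Mtk signals were the highest, so this fit does not stand as a test of Mtk. There 1 gene, Mtk, passed at 6 h against unmated females (log2 change 2.84, adjusted p = 0.0381), and 8 of the 9 counts were 0. The direction of change was less stable: in 40 of 72 pairs of a gene and a comparison, it turned under at least 1 of these. For Mtk against unmated females, the change ran from 1.01 to 3.46 at 0 h and from -0.16 to 3.27 at 6 h, with both lowest values from the number block as a fixed term. Arrays of a block had a consensus correlation of 0.311.

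The number of all probe sets called at 6 h against unmated females was 257, and it ran from 5 with the number block as a fixed term to 507 with log2 of signal plus 16. Leaving out single arrays gave 95 to 279. At 3 h it was 16, with 72 under array weights. For 3 h against 0 h it was 9, with 3 to 138 under the alternatives, for 6 h against 0 h 25 with 8 to 108, for 6 h against 3 h 63 with 3 to 142, and for 24 h against 6 h 5 with 0 to 13. The F test called 48, with 15 to 284. At 0 h and 24 h against unmated females these counts were 0, with at most 2 and 11. The call of PGRP-SC2 at 24 h against 6 h was lost when only these groups were fitted (adjusted p = 0.701), and that at 3 h against 0 h without pool 3 at 0 h or pools 3 or 4 at 3 h (adjusted p 0.0521 to 0.0725). Listericin at 6 h against 3 h passed with array weights only (adjusted p = 0.0471). The cause of these shifts was not tested.

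No paired analysis was possible because the numbers in the array labels of 2 groups coincide at most once. With 3 pools at 6 h and at 24 h, and a log2 spread of 1.65 between pools for Mtk, intervals were wide, and AttD, CecB, Drsl5 and Drsl6 lay too low on the array for small signals to be ordered.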
